A study of Bos taurus with 18 samples.

Results

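PCDHA13, a gene of the protocadherin alpha cluster, lies on chromosome 7 from 53577739 to 53788259 of the cattle genome build UMD3.1. The locus described here is the gene with 2000 bp on each side, and its members are all CpG positions listed there in the sperm methylomes of 18 Holstein bulls. There were 3739 such positions (2518 CpGs, with each strand of a CpG listed apart) of 40640718 listed in the whole genome. Each methylome came from whole-genome bisulfite sequencing of sperm from 1 adult bull, with no treatment and 1 library per bull, and gives the percent of reads methylated at positions covered by at least 10 reads. The labels place bulls in a high and a low group for 5 traits, with 4 high and 4 low bulls for gestation length (GL), and 3 high and 3 low bulls for each of the other traits. SCE stands for sire calving ease, BDE for body depth, CCR for the conception rate of cows and SCR for that of sires. The high-GL bulls were H03, H09, L03 and L05, and the low-GL bulls H02, H05, L01 and L07. For SCE the low group was H01, H06 and L09 and the high group H03, H07 and L02. For BDE the low group was H05, H09 and L02 and the high group H02, L03 and L08. For CCR the low group was H06, L08 and L09 and the high group H08, H09 and L06. For SCR the low group was L01, L02 and L03 and the high group H01, H02 and H03. The traits share bulls, so the comparisons are not independent, and the labels give no group for H04 and L04. A bull is a single animal, and age beyond "adult", genotype and semen cell counts were not used. Imprinted regions that would check the sperm label were not checked.

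Clustered protocadherins are cell-surface adhesion proteins, best known for giving neurons individual identities. In mammals each alpha isoform starts from its own variable first exon, these exons stand in tandem, each behind its own promoter, and each is spliced to the same constant exons at the far end of the cluster. In somatic cells a methylated variable-exon promoter is as a rule silent, so the methylation of the array is read as a record of which promoters can be used. The table of RefSeq genes (ARS-UCD2.0) lists PCDHA13 with 11 transcripts, and the next protocadherin after it in gene order is PCDHB1, of the neighbouring beta cluster. The exons of the gene in UMD3.1 were not available for this work, so the stretches described next are placed by coordinate only and are not assigned to exons, introns or UTRs.

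The locus held a row of unmethylated stretches. Of 1570 CpGs listed in at least 3 bulls, 782 (49.8%) had a mean below 20%, 717 (45.7%) a mean above 80%, and 71 (4.52%) a mean in between. In the genome the same classes held 7.36%, 79.3% and 13.3% of 20325494 CpGs. Low-methylation segments were defined, without regard to group, as runs of at least 5 neighbouring CpGs at most 500 bp apart, each with a mean below 20% over at least 3 bulls. The locus held 18 segments with a median length of 1264 bp (210 to 2729 bp), against a median of 385 bp for the 63385 segments of the genome. They covered 22615 bp, or 10.5% of the locus, and held 745 of its 782 low CpGs. Listed CpGs were dense in them, at 50.4 per kb against 7.19 per kb outside, which their definition as runs of neighbouring CpGs favours. CpGs that no bull listed are not counted. Segment means ran from 0.664% to 6.62%, with a median of 2.02%, against a median of 5.74% for segments of the genome.

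**Figure D1:**
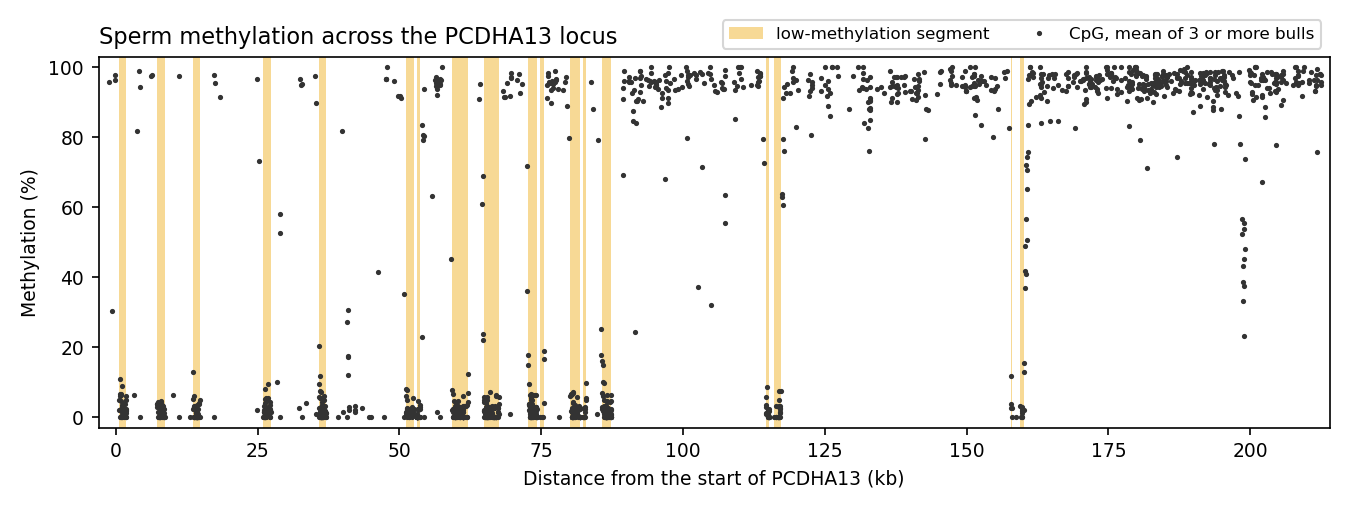
Each point is a CpG listed in at least 3 bulls, plotted as its mean methylation in percent against its distance in kb from the start of PCDHA13, and shaded bands are the 18 low-methylation segments. The first array alternates between CpGs near 0 and CpGs above 80%, and in the distal part most CpGs lie above 80% except in 4 segments.

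The segments fell into 2 arrangements. Segments less than 2000 bp apart were joined into 13 islands. Of these, 11 stood in a first array of 86753 bp, from 53578326 to 53665078, and 2 stood apart in the 125181 bp after it. In the first array the centres of neighbouring islands were 4.97 to 16.02 kb apart, with a median of 7.65 kb. There, 720 of 820 CpGs (87.8%) were low, whereas in the distal part 62 of 746 (8.31%) were low. The ends of the first array were set by its outermost low segments, which favours a high share of low CpGs in it. The distal islands lay from 53692404 to 53694955 and from 53735573 to 53737922, and their centres were 29.4 and 43.1 kb beyond the island before each. Outside segments, the distal part had a mean of 91.0% ± 4.72 (SD, n = 18 bulls), with bulls from 78.8% (L05) to 94.9% (L03). Outside segments in the first array the mean was lower and more spread, 57.1% ± 13.7 (SD, n = 18 bulls), from 16.2% (L05) to 74.5% (L08), and each bull listed its own set of positions there.

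The 10 longest segments were all in the first array. The longest ran from 53637062 to 53639790 (2729 bp, 85 CpGs in at least 3 bulls) and had a mean of 1.72%. The next, from 53642633 to 53645307 (2675 bp, 97 CpGs), had a mean of 1.65%. These 2 neighbours were the widest unmethylated stretches of the locus and in no bull with at least 5 listed positions did either exceed 4.69%. The others, with their means, were 53657885 to 53659556 (1.82%), 53663425 to 53665078 (2.32%), 53650367 to 53651953 (2.66%), 53628893 to 53630262 (2.03%), 53585024 to 53586347 (1.73%), 53578326 to 53579636 (2.83%), 53603768 to 53605032 (2.03%) and 53613511 to 53614773 (2.13%). All 10 thus had means between 1.65% and 2.83%. The 2 segments with the highest means held the fewest CpGs: 53652463 to 53653231, with 6 CpGs in at least 3 bulls, had 6.62%, and 53735573 to 53735782, with 5, had 4.20%, and neither was a segment with a limit of 10% per CpG. These 2 and the distal segments were singled out after their values were seen.

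Every bull was low in the segments. Over all segment positions a bull lists, the mean ran from 1.44% (L05) to 3.54% (H01), with 2.27% ± 0.555 (SD, n = 18). H01 listed 18 of the 1686 segment positions, the fewest. A segment CpG has a low mean over its listing bulls by definition, which limits how far bulls can differ there. With segments defined for each bull from the other 17 (17 to 19 segments), a bull's mean in them ran from 1.46% (L05) to 3.54% (H01), with 2.31% ± 0.574 (SD, n = 18), and at most 1.82% of its positions there were above 20% (L08). Of 220 segment values from a bull with at least 5 positions in the segment, 3 were above 10%, and the highest was 12.05% in L07 at 53652463 to 53653231. In the 6 bulls whose files also list read coverage, methylated reads made up 1.83% to 3.63% of all reads in segments. H01, with 7 methylated of 193 reads, had the widest 95% Wilson interval, from 1.77% to 7.30%. L02, with 122 of 5729 reads, had 1.79% to 2.54%. The intervals cover counting error only, and they overlap between these bulls. Both strands of a CpG gave like values: over 1584 pairs of strand values in the same bull, the median absolute difference was 0.758 points, and 56 pairs (3.54%) differed by more than 20 points.

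**Figure D2:**
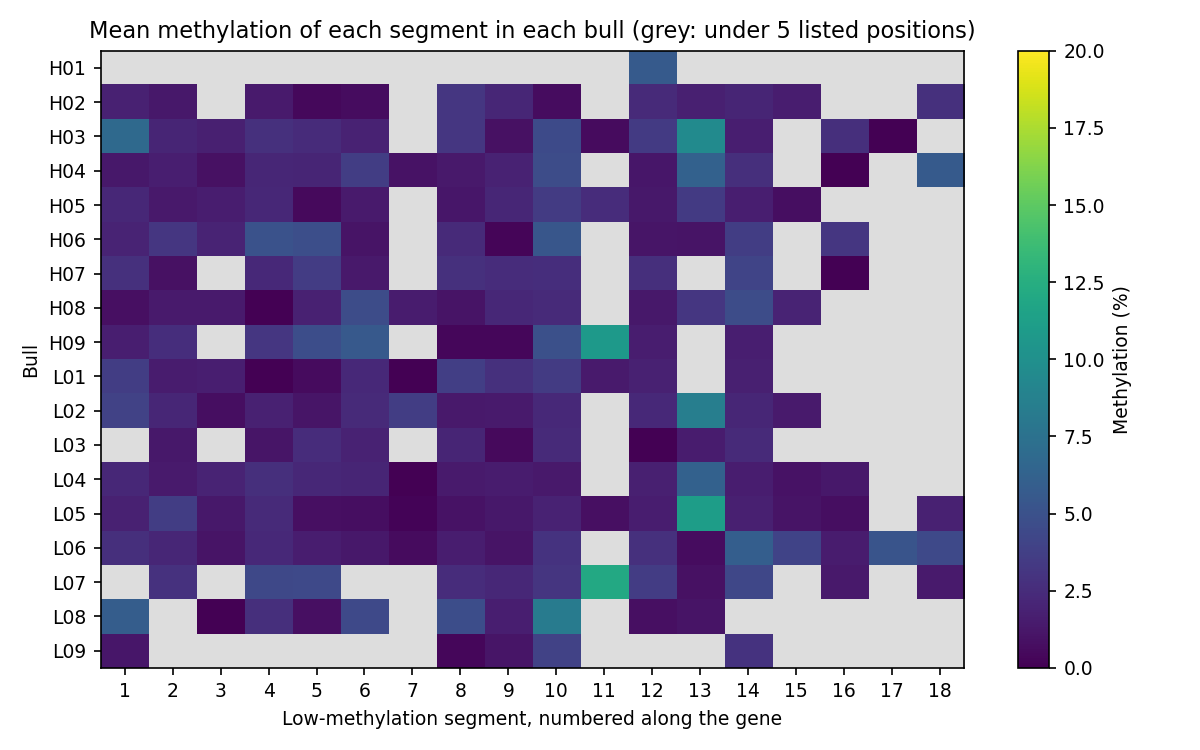
Rows are the 18 bulls, columns the 18 low-methylation segments in order along the gene, and colour is the mean methylation in percent on a scale from 0 to 20, with grey where a bull lists under 5 positions. All coloured cells are at or below 12.05%, and coloured cells are fewest in segments 17 (2 bulls), 18 (5 bulls) and 11 (6 bulls).

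The locus was also described in fixed windows, by the tiles of 2000 bp with the lowest and highest levels. Among the 57 tiles with at least 5 listed positions in at least 9 bulls, the lowest were 53592001 (0.984%), 53644001 (1.49%), 53664001 (1.61%), 53614001 (1.68%) and 53586001 (1.81%), each named by its first base and averaged over the bulls with 5 positions. They all lie in the first array. The highest were 53752001 (97.6%), 53786001 (97.3%) and 53762001 (96.9%), all in the distal part and with no position in a segment. In the tile at 53644001 the listing bulls ranged from 0% to 3.71%, and in the tile at 53752001 from 90.9% to 100%. H01 listed no position in the former and H09 none in the latter. The tiles were picked by their means over these bulls, so the gap between them follows from the choice.

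Not every low CpG lies in a segment. Of the low CpGs listed in at least 3 bulls, 37 were outside, and positions that fewer bulls listed could not define one. L05 listed 370 positions that no other bull listed, with a mean of 3.49%. Of these, 247 were outside segments, 235 of them below 20%, and 224 of the 235 were within 1000 bp of a segment. The other 17 bulls together had 715 positions listed by 1 bull alone. Their means at these ran from 1.30% (H09, 7 positions) to 85% (H01, 2 positions), and H09 was the only bull with a mean below that of L05. The distances from a segment end to the nearest CpG above 80% had a median of 1650 bp (348 to 5197 bp), which includes DNA where no CpG was listed in 3 bulls.

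Intermediate CpGs were few and clustered. Of the 71 CpGs with a mean of 20% to 80%, 33 lay within 1000 bp of a segment, and 24 were in 2 runs of at least 5 neighbouring intermediate CpGs. The first run, from 53737945 to 53738523, began 23 bp after the last distal segment and had 11 CpGs with a mean of 57.7% (37.1% to 75.8%). Its 11 bulls with at least 3 positions ranged from 38.9% (H05) to 75.8% (H06), with a median of 60.8%. The second run, from 53775844 to 53776873, stood 37922 bp beyond any segment and had 13 CpGs with a mean of 49.2% (23.3% to 78.0%). In its 9 bulls with at least 3 positions the lowest value was 32.6% (L06), the median 47.5% and the highest 63.8% (H08). These means rest on different positions in each bull. Against the other bulls at the same positions, bulls with at least 3 positions that at least 2 other bulls listed deviated by -20.1 (H05) to 15.97 (H06) points in the first run and by -18.7 (L06) to 15.04 (H04) points in the second. On 2 such positions of the second run H03 deviated by 65.9 points. Single CpGs spanned more, from 41.7% (L05) to 100% (H06) at 53738522 in the first run and from 13.3% (L06) to 83.3% (L08) at 53776826 in the second.

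Among the study's 25 fine-mapped genes, PCDHA13 had the most low-methylation segments, 18 against 6 in ZNF613, the gene with the next most, and it was also the longest of the 25 loci (214521 bp). Per 100 kb it had 8.39 segments, and 7 genes had more, up to 29.8 in SLC52A2, with 13.3 in ZNF613. Its share of low CpGs (49.8%) ranked 4 among the 25, behind 3 genes whose loci are between 7089 and 13414 bp long. The other fine-mapped genes on chromosome 7 were largely methylated, with 4.68% low CpGs in CYSTM1 and 2.21% in NRG2. Set against all 11723 autosomal windows of the same length, 11318 (96.5%) had fewer segments than this locus, with a median of 3, and 11617 (99.1%) had fewer bases in segments, with a median of 1602 bp. These ranks describe the locus and are no test.

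The gene has no position listed in all 18 bulls, so a likeness to other genes could not be measured as planned. On position-adjusted values (a bull's mean difference from the other bulls at the same positions), Pearson's r over the 18 bulls was highest for SCRT1 (0.668), MROH1 (0.600) and ADCK5 (0.593), where the bull with the least data had 5, 11 and 3 positions. For 4 of the other 24 genes (DGAT1, FBXL6, SLC52A2 and BOP1) a bull had no such position and no r was computed. The points share library, depth and the bulls' listed positions, and the values are a description only.

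Bulls differed widely in the positions they list. H01 listed 160 positions of the locus and L05 1535, and the share of listed positions that fell in segments ran from 11.3% (H01) and 32.8% (H06) to 52.4% (L03). The mean over all listed positions was lower in bulls with a higher share (Pearson's r = -0.912 over the 18 bulls). Without H01 and H06, whose shares lay farthest from the median, r was -0.755. Why the mean and the share went together was not tested. The mean was 77.2% in H01 and 60.03% in H06, against 43.3% in L03. It was lowest at 31.9% in L05, which had 46.8% in segments and also listed the extra low positions beside them. At positions that at least 2 other bulls also listed, each bull differed from the others by -0.899 (H09) to 1.45 (H06) points, with an SD of 0.589 points. The SD between bulls of the plain mean was 9.95 points over all listed positions and 8.17 points at the positions that at least 2 other bulls listed. The deviations at those positions, which are centred on the other bulls at each position, had the SD of 0.589 points. In the 6 bulls with coverage, mean coverage of listed positions was 11.1 to 11.99 reads in the locus against 12.8 to 13.7 over the genome. Positions below the limit of 10 reads are not listed, so these means do not give the full depth of the locus.

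**Figure D3:**
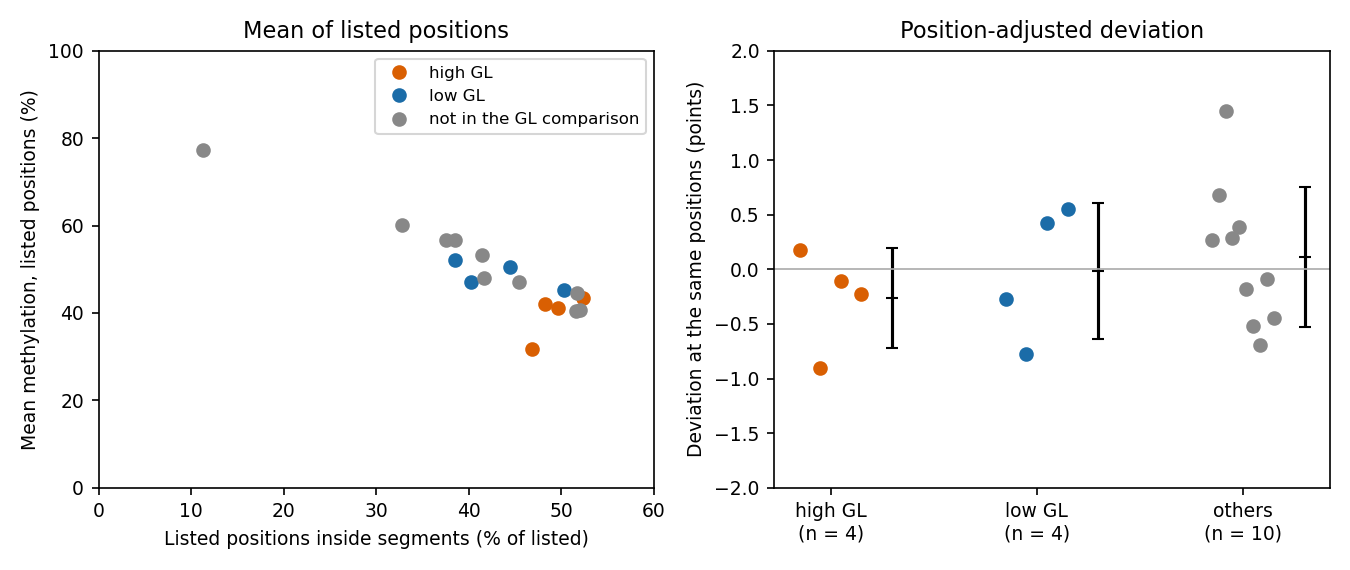
The left panel plots the mean methylation of all listed positions (percent) against the share of them inside segments (percent), 1 point per bull, and the right panel each bull's deviation in percentage points from the other bulls at the same positions, with mean and SD beside each group. On the left the means run from 77.2% in H01, with the lowest share, to 31.9% in L05, whose share of 46.8% is not the highest. All points on the right lie between -0.899 and 1.45 points.

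For gestation length, the first question was whether the level of the locus as a whole differed between the groups. The mean over all listed positions was 39.6% ± 5.23 (SD, n = 4) in high-GL bulls and 48.8% ± 3.12 (SD, n = 4) in low-GL bulls, a difference of -9.16 points (exact permutation p = 0.0286, two-sided, the smallest that 4 against 4 can give). High-GL bulls also had more of their listed positions in segments, 49.3% ± 2.35 against 43.3% ± 5.23 (exact permutation p = 0.114). At the same positions the groups overlapped: the deviations were 0.177, -0.899, -0.111 and -0.227 points in H03, H09, L03 and L05, and -0.270, -0.772, 0.422 and 0.556 in H02, H05, L01 and L07. The difference was -0.248 points (exact permutation p = 0.543, 0.905 after Benjamini-Hochberg adjustment over the 5 traits). Inside segments it was -0.137 points (exact permutation p = 0.743) and outside -0.309 points (exact permutation p = 0.657). Only 1 position was listed in all 8 bulls, and it gave 2.05 points (exact permutation p = 0.771). Of these 6 comparisons, the mean over all listed positions, to which each bull contributed different positions, was the one below 0.05.

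For SCE the plain means were 43.3% ± 3.35 and 64.6% ± 11.0 in the high and low groups (n = 3 each, exact permutation p = 0.1, the smallest that 3 against 3 can give), while the shares in segments were 48.6% and 27.5%. The plain means of the other traits differed by less, 3.27 points for BDE (exact permutation p = 0.5), -8.07 for CCR (exact permutation p = 0.2) and 10.7 for SCR (exact permutation p = 0.6). Position-adjusted over the locus, the differences were -0.329 points for SCE (exact permutation p = 0.8), 0.459 for BDE (exact permutation p = 0.2), -0.705 for CCR (exact permutation p = 0.5) and 0.0143 for SCR (exact permutation p = 1). Outside segments alone the position-adjusted difference was 1.11 points for BDE (exact permutation p = 0.2) and -1.05 for CCR (exact permutation p = 0.5). No SCE position was listed in all 6 bulls. The few positions that were gave 0.626 points for BDE (8 positions, exact permutation p = 0.9), -6.80 for CCR (3 positions, exact permutation p = 0.4) and -1.98 for SCR (4 positions, exact permutation p = 0.6). An exact permutation test of 3 bulls against 3 cannot give p below 0.1, so these tests could not pass 0.05.

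Segment by segment, GL differences at positions with a value in both groups ran from -20.8 to 5.66 points. Of 18 segments, 2 exceeded 5 points, and those had the fewest such positions. The value of -20.8 came from a single position in the segment from 53735573 to 53735782, and that of 5.66 from 5 positions between 53660164 and 53660670. In the 2 longest segments the differences were -1.34 points over 57 positions and -0.517 over 80.

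Tiles of 2000 bp were tested across the whole genome with a likelihood ratio test on methylated and unmethylated reads, called at a q below 0.01 and a difference above 5 points. For GL, 8.75% of the 593044 tiles tested in the genome were called, and 3 of the 39 tested in the locus (7.69%), all lower in high-GL bulls. For SCE 6.18% of genome tiles were called and 2 of 30 in the locus, for BDE 7.57% and 7 of 44, for CCR 11.1% and 5 of 33, and for SCR 8.68% and 2 of 42. BDE and CCR had 15.9% and 15.2% of their locus tiles called, SCE 6.67% and SCR 4.76%. The GL share was 17.5% (7 of 40, against 8.81% in the genome) with tiles shifted by 1000 bp, and the SCE share 13.3% (4 of 30, against 10.1%) with 13 reads assumed per position. Leaving out 1 bull changed the number called in several runs, and in some of them also the number tested. For GL it gave 5 of 53 without H09 (9.43%, against 9.12% in the genome), 5 of 39 without H05 (12.8% against 8.42%) and 6 of 40 without L01 (15% against 8.92%). For SCE it gave 0 of 30 without H06 (6.21% in the genome), 4 of 43 without H01 (9.30% against 6.80%) and 4 of 51 without L09 (7.84% against 6.17%). For BDE the share fell to 8.77% (5 of 57, against 6.93%) without L03 and rose to 19.6% (9 of 46, against 7.55%) without H02. In the other BDE runs it lay from 10.7% (against 7.19%) to 15.6% (against 7.69%). For CCR it gave 3 of 33 without L06 (9.09% against 8.79%), 3 of 35 without L08 (8.57% against 10.97%) and 9 of 58 without L09 (15.5% against 11.7%). For SCR it gave 8 of 58 without H01 (13.8% against 9.38%), 5 of 45 without H03 (11.1% against 8.87%) and 5 of 52 without L03 (9.62% against 8.60%). These tests treat reads as independent, and with the spread between bulls taken into account no tile of the locus was called for any trait, by the overdispersion F test (SLIM q) or by limma (Benjamini-Hochberg), which called no tile of the genome either, apart from 1 SCR tile (0.000182%) by the F test. At an unadjusted p below 0.05, the F test gave 3 GL tiles, 3 SCE, 0 BDE, 3 CCR and 3 SCR, or 0% to 10% of the locus tiles tested, against 5.26% (SCE) to 6.38% (GL) of genome tiles. By limma the counts were 2, 0, 5, 0 and 3, or 0% to 11.4% of locus tiles, against 3.81% (SCE) to 4.91% (GL) of genome tiles.

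**Figure D4:**
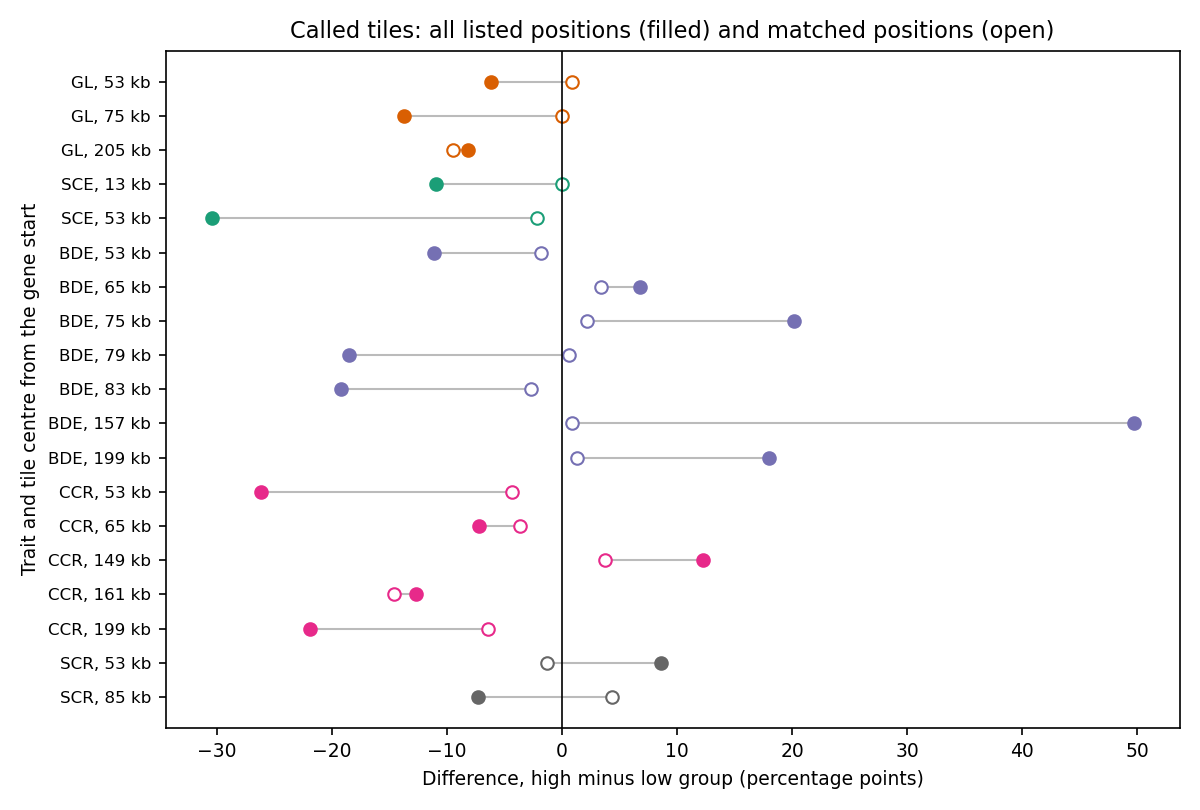
Each line is a tile called for a trait, with the difference between high and low group in percentage points over all listed positions (filled) and over positions with a value in both groups (open), labelled by trait and by the distance of the tile centre from the gene start in kb. Of the 19 pairs, the filled points reach 49.7 points while all but 3 open points lie within 5 points of 0.

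The 19 calls fell on 12 tiles. Their median absolute difference was 12.7 points over all listed positions and 2.19 points at matched positions, meaning those with a value from 1 or more bulls in both groups. At matched positions 3 of the 19 exceeded 5 points, 5 had the opposite sign, and 2 were called by a test stratified by position. Over all tiles with matched positions, that test called 1.84% in the genome and 1 of 96 in the locus for GL, 1.14% and 0 of 88 for SCE, 1.24% and 0 of 90 for BDE, 3.39% and 2 of 96 for CCR, and 1.05% and 0 of 90 for SCR. It too counts reads as independent, and 1 bull per group suffices at a position. Over the genome, 45.4% (GL) to 63.2% (CCR) of the called tiles had a difference above 5 points at matched positions, and 9.27% (CCR) to 16.98% (BDE) had the opposite sign there.

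The tile from 53630001 to 53632000 was called for all 5 traits, for SCR with listed coverage. With 10 reads per position, as assumed for the other traits, its SCR difference was 7.59 points and was not called. The tile holds the end of 1 segment and the whole of the next, with 61 of its 81 positions inside them. After 53631426 it holds a mostly methylated stretch, with a mean of 23.1% at the CpG at 53631813. Its level largely went with the share of a bull's positions in segments. H01 and H06, with none of 3 and none of 6, had 58.3% and 72.7%. H04 (32 of 32) had 0.881% and L06 (37 of 37) 0.471%. L05, with 53 of 65, was lower at 1.79% than L01, with 26 of 29, at 6.79%. In high-GL bulls the values were 7.97% (H03), 27.5% (H09), 1.67% (L03) and 1.79% (L05). In low-GL bulls they were 13.9% (H02), 12.1% (H05), 6.79% (L01) and 36.7% (L07). The groups overlapped. The differences over all positions were -6.16 points for GL, -30.4 for SCE, -11.1 for BDE, -26.2 for CCR and 8.65 for SCR. At matched positions they were 0.897 (32 positions), -2.19 (8), -1.81 (3), -4.33 (10) and -1.28 (17). The sign turned for GL and SCR, and none of the 5 was called. For GL the turn rested on the position at 53631852 (33.3 points, 1 high-GL bull against 2 low-GL bulls). Without it the GL difference was -0.149 points at 31 matched positions. Over all positions, leaving out L05 gave a GL difference of 1.79 points. Leaving out H06 gave 1.28 for CCR and -9.03 for SCE, and leaving out H01 gave 0.800 for SCR. None of these was called. For SCR it was also not called without L01 (4.23) or L03 (7.76), nor for GL without L07 (-4.47). The BDE call was kept in 2 of 6 such runs, and was lost without L03 (-8.59), L08 (-10.1), H09 (-8.20) or L02 (-10.7).

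The tile from 53652001 to 53654000 spans the segment from 53652463 to 53653231 and was called for GL and BDE. L03 had 100% at its 2 positions, both outside the segment, while H03 (53 positions), H09 (8) and L05 (73) had 8.10%, 10.8% and 8.64%. The low-GL bulls had 31.4% (H02), 16% (H05), 13.8% (L01) and 34.0% (L07). Over positions the difference was -13.7 points. Over bull means it was 8.09 points in the other direction (exact permutation p = 1). At the 13 matched positions it was 0.0110 points. Without the position at 53653162 (13.5 points, 1 high-GL bull against 3 low-GL bulls) it was -1.11 points at 12 matched positions. For BDE the difference was 20.2 points over all positions and 2.16 at 5 matched ones. The BDE call was kept in 4 of 6 runs that left out 1 bull, with differences from 13.1 to 45.3 points.

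The tile from 53782001 to 53784000, in the methylated distal part, kept its GL difference at matched positions. High-GL bulls had 83.3% (H03), 92.7% (H09), 98.0% (L03) and 89.4% (L05), with a mean of 90.9% ± 6.16 (SD, n = 4), and low-GL bulls 96.0% (H02), 98.9% (H05), 96.2% (L01) and 100% (L07), with 97.8% ± 1.99 (SD, n = 4). L03 lay inside the range of the low group, and the bull means gave an exact permutation p of 0.0857. The difference was -8.17 points over all positions and -9.44 at 10 matched positions (q = 0.00043 in the test stratified by position). It was -14.0 at 7 matched positions and -5.45 over bull means among the 4 bulls with a coverage column. Among the 4 without, it was -14.6 at 6 matched positions and -8.41 over bull means. It was called in all 8 runs that left out 1 bull. A large part of it came from a single CpG at 53782348, where H03 had 36.4% and L05 30.8% while H02, H05, L07 and L09 all had 100%. Without that position the difference was -3.11 points at 9 matched positions and -4.24 over all, below the 5 points required for a call. H09, L03 and L01 did not list it. H03 has a coverage column and L05 has none, so both subsets hold a bull that was low at that CpG. Every run without 1 bull also keeps at least 1 of them, and neither check was repeated without the position.

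The tile from 53646001 to 53648000 is among the 4 that the study lists for PCDHA13, beside the 3 called tiles, and that list was chosen on these samples. It contains no segment position. Its high-GL bulls had 72.3% (H03), 66.3% (H09), 70.5% (L03) and 100% (L05, at 1 position), and its low-GL bulls 97.7% (H02), 88.2% (H05), 76.2% (L01) and 76.7% (L07). The groups overlapped through L05. The difference was -12.8 points over all positions, with a q of 0.014 that missed the limit, and -1.20 points at 7 matched positions. The tile was called without L05 (q = 0.0058), L01 (q = 0.00498) or L07 (q = 0.00214), and with 13 reads assumed per position (q = 0.00275).

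For the other traits the largest called difference was 49.7 points for BDE at 53734001, where the high group listed 7 positions and the low group 17. H02 had 73.1%, L03 100% and L08 90.0%, against 49.6% in H05, 11.1% in H09 and 41.0% in L02. These groups do not overlap, but the tile was picked for the size of its difference. The bull means gave an exact permutation p of 0.1, the smallest that 3 against 3 can give. In segments lay 8 of the 17 low-group positions and 1 of the 7 high-group positions. By bull these were 3 of 6 in H05, 2 of 6 in H09, 3 of 5 in L02 and 1 of 4 in H02. H09, the lowest, thus had most of its positions outside segments. At 3 matched positions the difference was 0.894 points, and its cause was not tested. For SCE, CCR and SCR the largest was the tile at 53630001 described above.

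Outside the rule on named tiles, CCR had 2 tiles called at matched positions. The tile at 53738001 holds the first intermediate run except for its start, at 53737945. It had a difference of -12.7 points over all positions and -14.6 over 19 matched ones (q = 0.00464). Its bull means differed by -6.13 points (exact permutation p = 0.6). The call over all positions was kept in 4 of 6 runs that left out 1 bull. At 12 of the 19 positions 1 high-CCR bull was compared with 1 low-CCR bull, as at 53738390 (50% against 100%). The tile at 53618001, not called over all positions, differed by -25.3 points over 7 matched positions (q = 0.00246), with values from H08, H09 and L06 against H06 and L08, and none from L09. Both q values cover the counting of reads, with 10 assumed per position, and not the spread between bulls.

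Tiles were also ordered by the SD between bulls of each bull's mean over positions listed in at least 9 bulls. The 3 with the largest SD were 53662001 (30.5 points, 3 positions), 53660001 (25.7, 6 positions) and 53628001 (18.6, 6 positions), all at segment borders in the first array. A bull lists only some of these positions, and they lie on both sides of a border, so this SD includes which positions a bull lists. At any single one of them the SD between bulls was at most 35.8 points in the first tile (at 53662717, against 7.99 at the next), 12.1 in the second and 14.03 in the third. Over all listed positions the bulls ranged from 2.50% to 47.2%, from 1.05% to 93.8% and from 0.590% to 50%.

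Few single CpGs differed widely between bulls. Of 1193 CpGs listed in at least 5 bulls, 24 (2.01%) had a range above 50 points, none of them among the 492 in segments. On the whole of chromosome 7 the share was 7.11% of 668717 CpGs. Restricted to CpGs with a mean of at least 20%, it was 24 of 675 (3.56%) in the locus and 7.57% on the chromosome. These are counts over CpGs that share bulls, and the difference was not tested. A range can grow with the number of bulls that list a CpG, and the shares were not matched on that number or on depth.

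The CpGs given here were chosen among the 24 after their values were seen. At 53662717, in the first of the tiles just named, 6 of 12 bulls had 100%, while H05 had 30%, L02 54.5% and L09 0%. At 53674569, H04, H06 and L08 had 100%, H08 91.7%, L06 54.2%, H03 and L01 50%, and L05 0%. At 53685096, 8 bulls lay from 23.1% (H05) to 54.5% (L04) and L05 and L06 had 94.1% and 100%. H03 and L05 were low together at 53764810 (20% and 33.3%, against 92.3% to 100% in H04, H06, H08 and L04), at 53682615 (0% in both) and at 53782348. L05 alone was low at 53742498 (39.0%), 53767670 (36.4%) and 53771252 (30.8%), where the other listing bulls had 76.9% or more. At 53779709 H03 and L05 had 100% and H05 90.9%, while L06 had 30%, L01 30.8% and H06 33.2%, and at 53775844 H02 was lowest with 40%. Over the 24 CpGs, ties included, L05 was lowest at 8 of the 17 it listed, L06 at 4 of 16, H03 at 3 of 12 and H05 at 3 of 15, and H06 was highest at 10 of 17. Bisulfite reads alone do not tell an unmethylated cytosine from a C-to-T difference in the DNA, and genotypes were not used here.

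**Figure D5:**
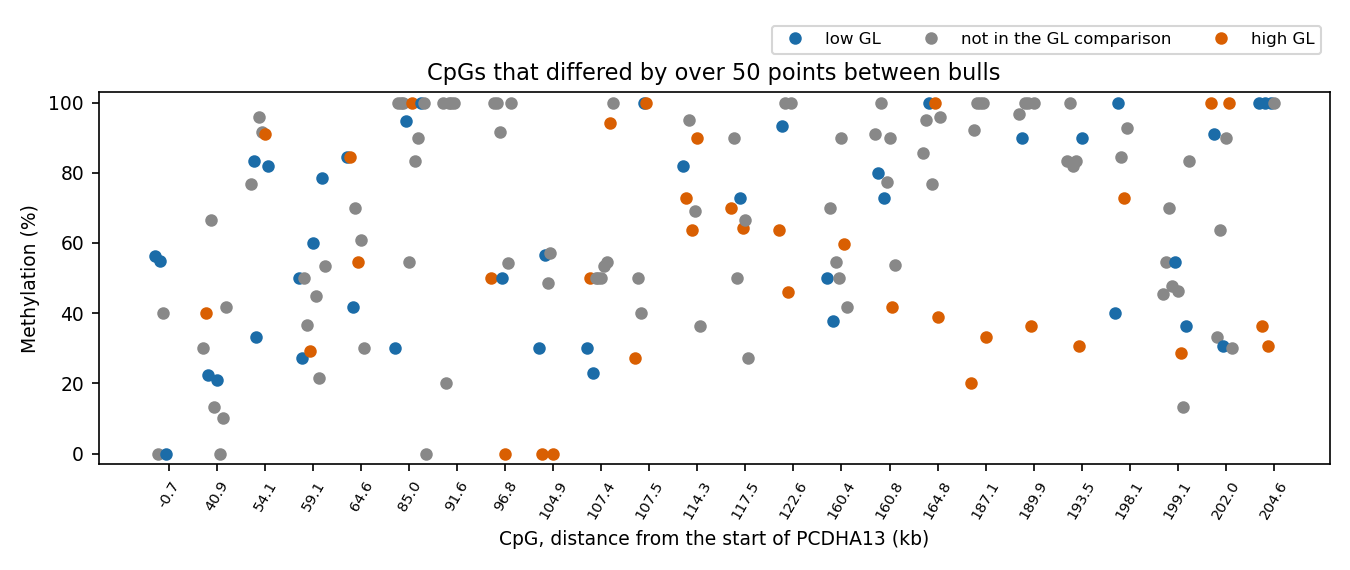
The 24 CpGs with a range above 50 points are placed in order along the gene and labelled by distance from its start in kb, with methylation in percent on the vertical axis and 1 point per listing bull, coloured by GL group. The lowest point belongs to a high-GL bull at some CpGs and to a low-GL or ungrouped bull at others, and the high-GL bull L05 is lowest at 8 of the 17 it lists.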

How the data were processed

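Sperm DNA of 18 bulls was bisulfite-sequenced. Per the labels and the study's methods, the authors trimmed reads (FastQC 0.11.2, Trim Galore 0.4.0), mapped them to UMD3.1 (Bowtie2, Bismark 0.14.5) and kept CpG positions with at least 10 reads. The deposited files give the percent methylated per position, and for 6 bulls (H01 to H03, L01 to L03) also the count of covering reads. Depth in the other 12 is unknown, so intervals are given for 6 bulls. Other columns of per-sample values left unused numbered 0.

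Here, tiles of 2000 bp were fitted over the whole genome with a two-group likelihood ratio test (10 reads assumed per position, listed coverage for SCR) with q values from a simplified SLIM estimate, and compared with an overdispersion F test, limma 3.58.1 on log2 ratios, and a Cochran-Mantel-Haenszel test by position. Bull means were compared by exact two-sided permutation tests. Scripts used Python 3.11.15 and R 4.3.3. Of the tile tests, the likelihood ratio test and limma were tried on simulated reads for GL and SCR tiles of a single chromosome, drawn without a spread between bulls. The position-adjusted values, within-layout values, islands, intermediate runs and segments defined from the other bulls were added after the data were seen. The members and lists were chosen with earlier results of these data known. Tiles were named if called for GL, listed by the study, among the 5 lowest or 3 highest in level or the 3 largest in SD, or largest for another trait. Segments named were the 10 longest.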

Additional observations from a re-analysis of the deposited data

Results flagged for a closer look

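In the high-GL group, L03 stood apart from the other 3 bulls in the tile from 53652001 to 53654000, with 100% against 10.8% in the nearest, H09 (a gap of 0.970 of the group's range, above the 95% critical value of Dixon's test for 4 values). L03 listed 2 positions there, both outside the low-methylation segment, which held 36 of the 53 positions of H03, 8 of 8 of H09 and 11 of 73 of L05. This was the single value that stood apart in 22 groups of 4 examined for the GL comparison, where chance gives about 1 in 20 groups.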

How the results depend on the processing

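The low-methylation segments numbered 18 with a limit of 20% and 18 with 10%, but were not the same: 9 kept both ends, 5 were shortened, 2 were split and 2 were lost (53652463 to 53653231 and 53735573 to 53735782). Tile calls in the locus did not keep their number: with an overdispersion F test or limma the counts were 0 for all 5 traits, and with the test stratified by position they were 1 for GL, 0 for SCE, 0 for BDE, 2 for CCR and 0 for SCR. With a difference above 10 points GL had 1 call of 39 tiles (4.90% in the genome) and SCR 0 of 42 (5.64%). Tiles shifted by 1000 bp gave 7 of 40 for GL (8.81%), 13 reads per position 4 of 30 for SCE (10.1%), 10 reads per position 0 of 42 for SCR (6.05%), and Benjamini-Hochberg adjustment 1 of 42 for SCR (7.71%). No SCR tile of the locus could be tested at a coverage of at least 15. Without 1 bull the counts ran from 3 to 6 for GL, 0 to 4 for SCE, 3 to 9 for CCR and 3 to 8 for SCR, while the number of locus tiles tested ran as high as 58; those for BDE stayed within 1.5 times the 7 calls. The cause of these changes was not tested.

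At matched positions the differences in the tile at 53630001 turned to 0.897 points for GL and -1.28 for SCR, and that at 53652001 to 0.0110 for GL. Without the matched position of largest difference in each tile, the GL values were -0.149 at 53630001 and -1.11 at 53652001. Without 1 bull, 53630001 ran from -11.9 to 1.79 points for GL and from -39.2 to 1.28 for CCR.

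The mean at positions listed in every bull of a comparison rests on at most 8 positions and could not be computed for SCE, nor within segments for GL, SCE and CCR. For GL it turned to -1.13 points with strands averaged and to -9.16 over all listed positions, and ran from -2.26 to 6.89 without 1 bull; for SCR it turned to 10.7 over all listed positions. Without 1 bull it ran from -0.476 to 3.73 for BDE, -12.1 to 3.35 for CCR and -5.82 to 2.52 for SCR, and within segments from -3.44 to 1.86 for BDE. The position-adjusted difference kept its direction for GL and CCR in each alternative run, but its size moved: without 1 bull it ran from -0.500 (H05) to -0.0370 (H09) for GL and from -1.10 (H08) to -0.132 (H06) for CCR. It turned inside segments to 0.0311 for SCE and -0.150 for BDE, and for SCR to -0.201 with at least 5 other bulls and -0.318 outside segments; without 1 bull it ran from -0.764 to 0.184 for SCE and from -0.0975 to 0.203 for SCR. No paired analysis was possible because the labels pair no bulls across groups.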
